A study of Homo sapiens with 72 samples.

Results

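The 80 long non-coding RNA (lncRNA) genes described here were chosen by their 24 h values, and had lower levels after 24 h of TGF-β than after 24 h of the receptor inhibitor SB431542 in each of 3 human breast cell lines. They were taken from 96411 genes in the table. For each line, the mean of log2(TPM + 0.5) over the 3 SB431542 libraries was subtracted from that over the 3 TGF-β libraries at 24 h, and the median of this difference over the line's tested genes was removed. TPM is a length-corrected share of a library. A gene was tested in a line if it reached 0.5 TPM in at least 3 of its 24 libraries, and 13631 genes were tested in all 3 lines. Of these, 565 (4.14%) had a centred difference under −0.3 in each line, and the 80 whose weakest difference was the most negative are the members, ranked 1 to 80. Single libraries of the arms overlapped for some members in each line, as counted below.

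MCF10A-M1 (M1) is an epithelial line from normal breast, and MCF10A-M2 (M2) is the same line transformed with HA-Ras and labelled pre-malignant. The third line, MDA-MB-231, comes from a triple-negative breast cancer. After a night without serum, each line received TGF-β at 5 ng/mL or SB431542 at 10 µM, and total RNA was sequenced at 2, 8 and 24 h. The TGF-β arm starts from non-stimulated cells at 0 h, and the SB431542 arm from samples labelled 0 h in one field and 0.5 h in another, called the earliest SB431542 samples. Each of the 24 groups had 3 replicates, 72 libraries in all. DMSO and ligand buffer are named as vehicles, but no library is labelled as a vehicle control. Each line is a single cell line, so the replicates do not sample differences between individuals. The table holds only lncRNA genes under NONCODE identifiers, so the lines could not be checked by protein-coding markers.

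TGF-β is a secreted ligand whose type I receptor kinase phosphorylates receptor-regulated SMAD proteins, which enter the nucleus and switch genes on or off together with other factors. SB431542 blocks that kinase, so it also removes the effect of TGF-β that cells make themselves. In breast epithelial cells the pathway is known for arresting growth and for driving epithelial-mesenchymal transition. LncRNAs are transcripts that are not translated into a known protein, and many act on chromatin, transcription or RNA turnover. The deposited table does not pair identifiers with gene names, and 0 of its identifiers matched the RefSeq or GENCODE tables used, so the role, position and sequence of each member are not given. Reads of overlapping, antisense or near-identical genes may be shared between members, since the strand setting of the counting is not given in the sources used here.

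TPM keeps no read depth, so the precision of low values is unknown. In 1 library, 8458 to 16748 genes reached 0.5 TPM. At 24 h, that number was 14205 to 15597 with TGF-β and 15553 to 15786 with SB431542 in M1, 8458 to 10138 and 9261 to 9342 in M2, and 10144 to 11955 and 12572 to 13199 in MDA-MB-231. These ranges did not overlap in MDA-MB-231, and overlapped in M1 and in M2. TPM sum to a fixed total over the lncRNA genes, so a rise of a few abundant genes lowers the values of the rest; the centring of the rule removes the median shift, which on the log2 scale was −0.21 for M1, −0.09 for M2 and −0.33 for MDA-MB-231. The part of these differences between libraries in the results was not tested, apart from the other scalings given below.

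The 24 h values chose the members and are given as a description only. NONHSAG053592.2, rank 1, was also the most abundant member, with a mean of 314 TPM over the 72 libraries. In M1 it stood at 128, 144 and 129 TPM with TGF-β and at 519, 510 and 513 TPM with SB431542. In M2 the values were 38.3, 32.5 and 32.2 TPM against 688, 745 and 621 TPM. In MDA-MB-231 they were 1.98, 1.07 and 1.69 TPM against 14.1, 15.8 and 15.6 TPM. The arms were far apart in every line, although the level in MDA-MB-231 was a small fraction of that in the MCF10A lines. Its centred log2 differences were −1.73, −4.21 and −2.61 in M1, M2 and MDA-MB-231.

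NONHSAG073918.1, rank 2, was a gene of moderate level. It was at 7.44, 6.97 and 4.22 TPM with TGF-β and 24.5, 20.1 and 18.8 TPM with SB431542 in M1. In M2 it was at 4.34, 4.04 and 3.82 TPM against 21.9, 28.2 and 17.4 TPM. The MDA-MB-231 values were 1.88, 1.11 and 1.73 TPM against 7.30, 5.84 and 6.12 TPM. The second most abundant member, NONHSAG099227.1 (rank 16, mean 213 TPM), was at 88.9, 96.3 and 86.6 TPM against 457, 451 and 427 TPM in M1. Both genes were lower in every TGF-β library than in every SB431542 library of the same line.

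At the limit of 80 the ranking was nearly flat. The last members inside, NONHSAG016968.2 and NONHSAG035208.2, had weakest differences of −0.617 and −0.615. The next genes outside had −0.614 and −0.612. Over the members the centred difference ran from −3.01 to −0.62 in M1 (median −1.04), from −4.56 to −0.62 in M2 (median −1.12) and from −3.83 to −0.62 in MDA-MB-231 (median −0.82). The weakest line was MDA-MB-231 for 43 members, M1 for 23 and M2 for 14. Every TGF-β library lay below every SB431542 library for 76 members in M1, 73 for M2 and 73 for MDA-MB-231; the same held for 21.7%, 21.4% and 27.3% of all genes tested in these lines, and the rule itself used that contrast. Summed over the members, the 24 h libraries held 688 to 849 TPM with TGF-β and 2284 to 2365 TPM with SB431542 in M1, 320 to 383 and 1722 to 2263 TPM in M2, and 361 to 587 and 1058 to 1348 TPM in MDA-MB-231.

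**Figure D1:**
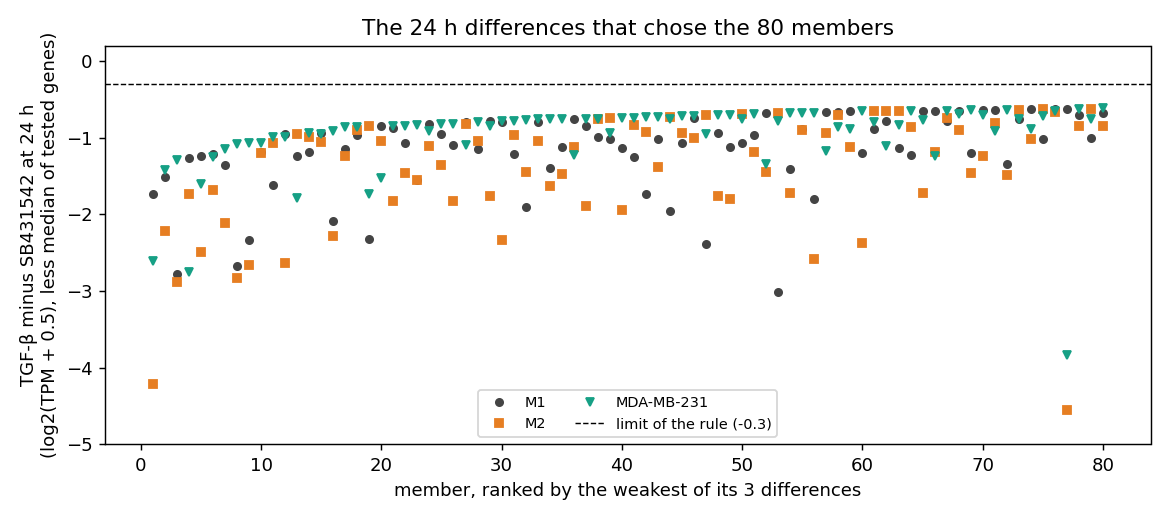
Centred 24 h difference (TGF-β minus SB431542, log2(TPM + 0.5)) of each of the 80 members in M1 (circles), M2 (squares) and MDA-MB-231 (triangles), by rank; the dashed line is the limit of the rule. MDA-MB-231 forms the upper edge for 43 members, and at rank 77 the M2 and MDA-MB-231 points lie near −4.56 and −3.83.

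The largest differences in M2 and MDA-MB-231 belonged to NONHSAG014156.2, rank 77, whose replicates disagreed. In M2 it was at 0.794, 0.640 and 0.723 TPM with TGF-β and at 82, 136 and 2.00 TPM with SB431542. The MDA-MB-231 values were 1.43, 1.66 and 0.855 TPM against 115, 97.4 and 2.37 TPM. In M1 it was at 7.66, 9.09 and 15.6 TPM against 56.0, 54.3 and 1.80 TPM. SB431542 replicate 3 was thus the low library in all 3 lines, and in M1 it lay below every TGF-β library. The gene had the widest spread within groups of all members, with a median SD of 2.55 on the log2 scale against 0.32 for the median member, and its M2 libraries at 0 h read 23.0, 1763 and 17.2 TPM.

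A lower level with TGF-β than with SB431542 can come from a fall in the TGF-β arm, a rise in the SB431542 arm, or both. From 0 h to 24 h of TGF-β, the median log2 change of the members was −1.07 (M1), −2.02 (M2) and −0.82 (MDA-MB-231), beside −0.25, −0.74 and −0.25 for all tested genes. From the earliest to the 24 h SB431542 samples it was 0.25, −0.62 and 0.14, beside 0.01, −0.63 and −0.05. In M2 the libraries also differed over time. There 12533 to 14232 genes reached 0.5 TPM at 0 h and 8458 to 10138 at 24 h of TGF-β. In its SB431542 arm, 12430 to 14299 did in the earliest samples and 9261 to 9342 at 24 h. The part of this in the changes was not tested. Relative to all tested genes, the number of members more than 0.3 lower was 66 in M1, 64 for M2 and 56 for MDA-MB-231 after TGF-β. In the SB431542 arm, 37, 33 and 34 members were more than 0.3 higher. Both held for 25 members in M1, 18 for M2 and 12 for MDA-MB-231. These changes use the 24 h libraries of the rule and carry no test. No share of all tested genes beyond 0.3 is given beside these counts, so they cannot be set against a background. The choice on the difference between the arms also favours a fall with TGF-β and a rise with SB431542.

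**Figure D2:**
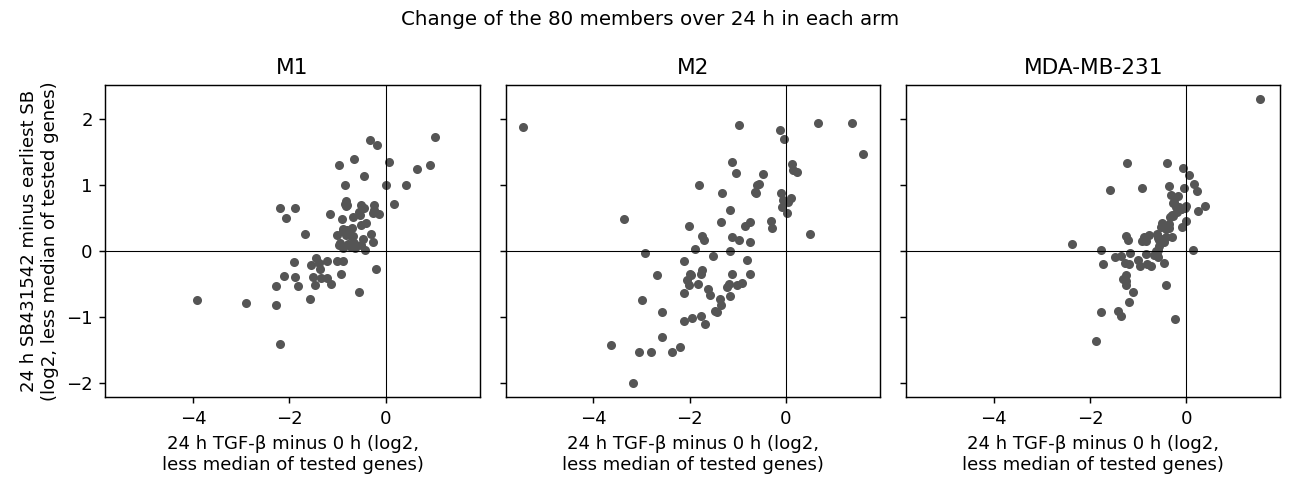
Log2 change over 24 h of TGF-β (horizontal) and over the SB431542 course (vertical) for the 80 members in each line, both less the median of all tested genes; each point is a member. Most points lie left of 0, with medians of −0.82 (M1), −1.27 (M2) and −0.57 (MDA-MB-231), while the vertical medians were 0.24, 0.01 and 0.20.

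The libraries at 0, 2 and 8 h were not used to choose the members, other than by the filter on low values, and 54 of the 72 libraries fall there. All 80 members also passed that filter on these libraries alone in each line. Tests were made with limma on log2(TPM + 0.5) over all genes tested in a line, with p-values adjusted by Benjamini-Hochberg over all of them, and genes with an adjusted p under 0.05 are named called. The design text calls the replicates biological; if they were not separate cultures, p-values reflect the spread of these samples alone, which may be technical. RNA was taken from whole cultures, so a lower level per cell and fewer expressing cells cannot be told apart.

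At 8 h the members were already lower with TGF-β than with SB431542 in part. In M1, 29 of the 80 members were called lower and 0 higher, while 2.89% of the 20899 tested genes were called lower and 5.41% higher. In M2, 13 were called lower and 1 higher, with 0.885% of 16958 tested genes called lower and 6.04% higher. In MDA-MB-231, 9 were called lower and 0 higher, with 0.266% of 16552 tested genes called lower and 0.671% higher. At an unadjusted p under 0.05, the higher members numbered 1 (M1), 2 (M2) and 0 (MDA-MB-231). The lower members numbered 47, 30 and 24 in the same order. That limit was reached in either direction by 20.3%, 21.7% and 8.1% of all tested genes. The median log2 difference of the members was −0.69 (M1), −0.41 (M2) and −0.42 (MDA-MB-231), beside 0.04, 0.23 and −0.06 for all tested genes. Every TGF-β library lay below every SB431542 library for 47 members in M1, 31 for M2 and 25 for MDA-MB-231, against 10%, 6.43% and 7.06% of all tested genes. The summed level at 8 h was 1205 to 1269 TPM with TGF-β and 2142 to 2347 TPM with SB431542 in M1, 1136 to 1690 and 1927 to 2377 TPM in M2, and 589 to 798 and 758 to 1257 TPM in MDA-MB-231, where alone the ranges overlapped. After median-of-ratios scaling, a scaling to the median gene-wise ratio between libraries, 36 members were called lower in M2 and 15 in MDA-MB-231, with backgrounds of 5.11% and 0.773%.

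**Figure D3:**
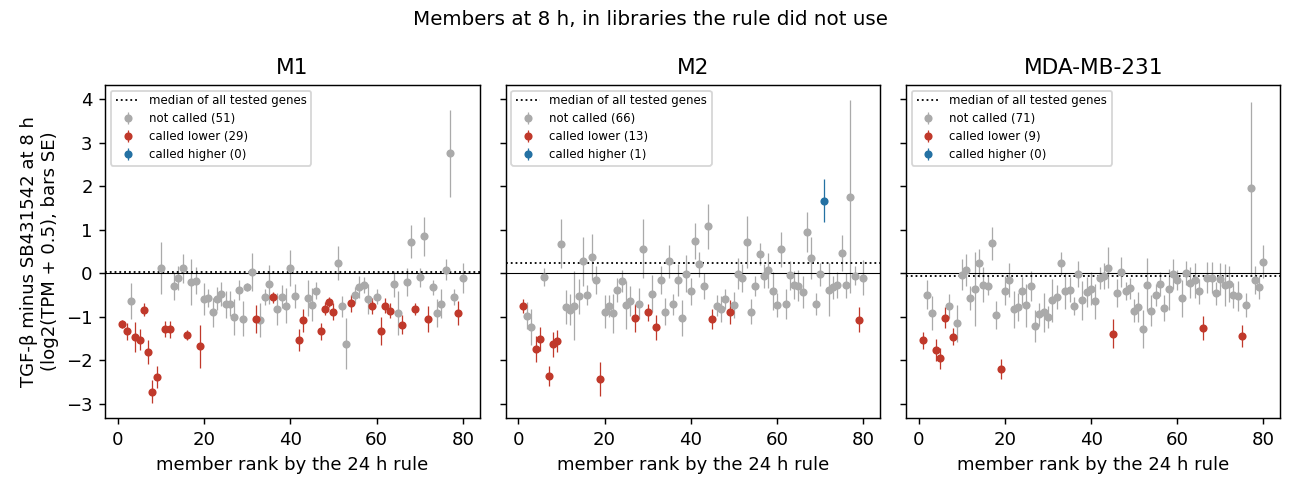
Log2(TPM + 0.5) difference between TGF-β and SB431542 at 8 h for each member by its 24 h rank, with the standard error, in M1, M2 and MDA-MB-231. Red points were called lower by limma (29, 13 and 9), the blue point was called higher (1, in M2), and the dotted line is the median of all tested genes.

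Among the members called in M1, the largest differences at 8 h were those of NONHSAG032248.2 and NONHSAG009470.2. The first stood at 2.55, 3.81 and 4.39 TPM with TGF-β and 22.8, 32.1 and 23.8 TPM with SB431542 (log2 difference −2.72, SE 0.26, limma adjusted p 1.75e-07). The second stood at 5.59, 9.04 and 3.81 TPM against 35.1, 33.4 and 29 TPM (−2.38, SE 0.25, limma adjusted p 5.79e-07). In both genes the arms did not overlap. The weakest difference among the called members of M1 was −0.55. NONHSAG014156.2, the member of uneven replicates, went the other way by more, at 20.5, 105 and 102 TPM with TGF-β and 4.31, 19.4 and 7.06 TPM with SB431542 (2.76, SE 1.00, limma adjusted p 0.0970). Its arms did not overlap in M1, and it was not called; it is named after its values were seen.

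Among the members called in M2, the largest differences were those of NONHSAG032247.3 and NONHSAG072189.1. NONHSAG032247.3 was low with TGF-β, at 0.0457, 0.490 and 0.142 TPM, and at 3.08, 3.82 and 3.01 TPM with SB431542 (−2.43, SE 0.39, limma adjusted p 0.000303). Its level in M2 was already low at 0 h, as given below. NONHSAG072189.1 was at 2.09, 2.91 and 2.31 TPM against 12.1, 14.3 and 17.8 TPM (−2.37, SE 0.23, limma adjusted p 3.56e-07). Both were without overlap between the arms. NONHSAG114386.1 went the other way, at 0.810, 4.20 and 2.67 TPM against 0.0326, 0.681 and 0.463 TPM (1.67, SE 0.50, limma adjusted p 0.0424). That call was lost without TGF-β replicate 2 or 3 (adjusted p 0.229 and 0.158), without SB431542 replicate 1, 2 or 3 (0.210, 0.0552 and 0.0691), and under 6 of the other settings tried, with adjusted p from 0.0511 to 0.101.

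Among the members called in MDA-MB-231, the largest differences were those of NONHSAG032247.3 and NONHSAG005150.3. The first stood at 4.86, 6.29 and 4.15 TPM with TGF-β and 22.9, 20.3 and 33.2 TPM with SB431542 (−2.20, SE 0.23, limma adjusted p 1.38e-06). The second stood at 6.08, 5.96 and 8.79 TPM against 24.9, 25.5 and 34.4 TPM (−1.96, SE 0.24, limma adjusted p 2.01e-05). Neither gene overlapped between the arms.

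A total of 5 genes were called lower at 8 h in all 3 lines, out of the 13631 tested in each, and all 5 were members. They are NONHSAG053592.2, NONHSAG087805.2, NONHSAG005150.3, NONHSAG032248.2 and NONHSAG032247.3 (ranks 1, 4, 5, 8 and 19), named for this overlap after their values were seen. A further 8 members were called in 2 lines, 20 in 1 line and 47 in none. Relative to the median of all tested genes, 54 of the 80 members were lower in all 3 lines at 8 h, against 16.3% of the 13631 genes. No library is shared between the lines.

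NONHSAG053592.2 had 8 h differences of −1.17 (M1, SE 0.08), −0.75 (M2, SE 0.17) and −1.54 (MDA-MB-231, SE 0.20), at limma adjusted p of 1.86e-09, 0.00676 and 5.13e-05. In M1 it stood at 265, 262 and 272 TPM with TGF-β and at 602, 619 and 580 TPM with SB431542. In M2 it stood at 339, 407 and 431 TPM against 656, 612 and 710 TPM. In MDA-MB-231 it stood at 2.78, 2.54 and 2.94 TPM against 7.20, 9.37 and 10.7 TPM. The arms were separate in every line at 8 h, and at 2 h limma found no call in any line (adjusted p 0.930, 0.213 and 0.901). When the scaling total excluded the 10 most abundant genes, this gene was no longer called in all 3 lines.

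In M1 both arms of NONHSAG053592.2 moved. It was lower at 8 h of TGF-β than at 0 h (log2 change −0.42, SE 0.08, limma adjusted p 0.00268), from 314, 377 and 381 TPM. It was higher at 8 h of SB431542 than in the earliest SB431542 samples (0.79, SE 0.08, limma adjusted p 3.67e-06), from 336, 349 and 352 TPM. In M2 and MDA-MB-231 the change from 0 h was −0.62 and −1.17 (limma adjusted p 0.0322 and 0.00204), while the SB431542 arm was not called (adjusted p 0.492 and 0.746).

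NONHSAG087805.2 had 8 h differences of −1.46 for M1 (SE 0.35), −1.74 for M2 (SE 0.29) and −1.75 for MDA-MB-231 (SE 0.25), at limma adjusted p of 0.00858, 0.000470 and 0.000197. Its 8 h libraries read 0.617, 0.265 and 0.573 TPM against 4.65, 1.51 and 1.34 TPM in M1. They read 2.15, 2.29 and 2.01 TPM against 7.48, 6.93 and 11.5 TPM in MDA-MB-231. The arms did not overlap. Of the 5, this gene was the one called at 2 h, in M2 and MDA-MB-231. At 2 h it stood at 0.946, 0.485 and 0.848 TPM with TGF-β and 4.75, 4.88 and 2.36 TPM with SB431542 in M2 (−1.80, SE 0.29, limma adjusted p 0.000703). In MDA-MB-231 it stood at 5.69, 2.30 and 3.95 TPM against 10.3, 8.75 and 8.91 TPM (−1.20, SE 0.25, limma adjusted p 0.0181). In M1 its 2 h libraries read 0.0691, 0.0912 and 0.118 TPM against 0.512, 1.26 and 1.05 TPM, without overlap, and it was not called (adjusted p 0.0873). In M2 it also fell in the SB431542 arm by 8 h, from 5.92, 6.35 and 7.76 TPM to 1.54, 2.25 and 2.95 TPM (limma adjusted p 0.0141). The call in that arm was lost in 5 of the other settings tried. Among them were the fits without SB431542 8 h replicate 1 or 2 (adjusted p 0.0998 and 0.0652) or without earliest replicate 3 (0.0899). The MDA-MB-231 call at 2 h was lost in 5 of the other settings tried. Among them were the fits without TGF-β replicate 2 or 3 (0.153 and 0.0540) or SB431542 replicate 1 or 3 (0.0861 and 0.0632).

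NONHSAG005150.3 stood at 5.90, 7.68 and 3.53 TPM with TGF-β and 14.4, 18.4 and 17.3 TPM with SB431542 in M1 at 8 h, and at 6.03, 6.53 and 6.26 TPM against 16.8, 17.6 and 22.7 TPM in M2. The arms were apart in both lines. Its log2 differences were −1.52, −1.52 and −1.96, and against 0 h they were −1.35, −1.30 and −1.61 in M1, M2 and MDA-MB-231. All of these passed the test (limma adjusted p from 2.01e-05 to 0.00493). Its SB431542 arm was not called between the earliest samples and 8 h in any line (adjusted p 0.744, 0.918 and 0.876). The difference between M2 and M1 in its 8 h response was 0.01, with a 95% interval from −0.73 to 0.75, and between MDA-MB-231 and M1 it was −0.43 (−1.12 to 0.26).

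NONHSAG032247.3 and NONHSAG032248.2 carry consecutive identifier numbers; their positions are not given here. At 8 h, NONHSAG032248.2 stood at 9.30, 15.2 and 12.4 TPM with TGF-β and 35.4, 30.8 and 52.5 TPM with SB431542 in M2 (−1.63, SE 0.29, limma adjusted p 0.000874). In MDA-MB-231 it stood at 25.1, 21.0 and 25.5 TPM against 72.9, 56.3 and 70.0 TPM (−1.45, SE 0.19, limma adjusted p 4.89e-05). Neither line showed overlap. The gene fell from 0 h to 8 h of TGF-β in all 3 lines, by 1.97, 1.34 and 0.90 on the log2 scale (limma adjusted p 2.78e-05, 0.00686 and 0.0135). NONHSAG032247.3 was a low gene in the MCF10A lines, at 0.574 ± 0.0739 TPM (SD, n = 3) in non-stimulated M1 and 0.342 ± 0.220 TPM in M2. Its MDA-MB-231 level was 17.4 ± 1.91 TPM. In M1 at 8 h it stood at 0.0455, 0 and 0.0252 TPM with TGF-β and 1.40, 0.362 and 2.37 TPM with SB431542 (−1.68, SE 0.49, limma adjusted p 0.0349). It fell from 0 h to 8 h in MDA-MB-231 (−1.69, limma adjusted p 0.000100), and was not called in M1 or M2 (0.210 and 0.812). In M2 its mean in the TGF-β arm was 0.342 TPM at 0 h, 0.226 TPM at 8 h and 1.16 TPM at 24 h. In the SB431542 arm of M2 it was 1.23 TPM in the earliest samples and 3.30 TPM at 8 h (1.23, SE 0.39, limma adjusted p 0.0959). The means of the 2 arms of M2 already differed at the start (−0.97, SE 0.39, limma adjusted p 0.427), with overlap between the libraries. From the start to 8 h in M2, the mean rose in the SB431542 arm by more than it fell after TGF-β, and neither change was called. Over the 54 libraries outside the rule, centred within each line, the levels of this pair correlated with r = 0.65. Another pair with consecutive numbers, ranks 52 and 74, had r = 0.75, and the median over the 3160 pairs of members was 0.34; these points share libraries and their scaling.

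The set of 5 depended on single libraries of M1. Without M1 TGF-β 8 h replicate 2, or without M1 SB431542 8 h replicate 1, 3 members remained, with NONHSAG087805.2 and NONHSAG032247.3 lost. NONHSAG032247.3 alone was lost without M1 TGF-β replicate 1 or 3 or M1 SB431542 replicate 3, and also at pseudocount 1, with no filter and without the 24 h libraries, so that 4 members remained in each case. SB431542 replicate 1 of M1 read 4.65 TPM for NONHSAG087805.2, against 1.51 and 1.34 TPM in the others. Leaving out an 8 h library of M2 or MDA-MB-231 kept all 5. After median-of-ratios scaling, 16 genes were called lower in all 3 lines, of which 10 were members.

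**Figure D4:**
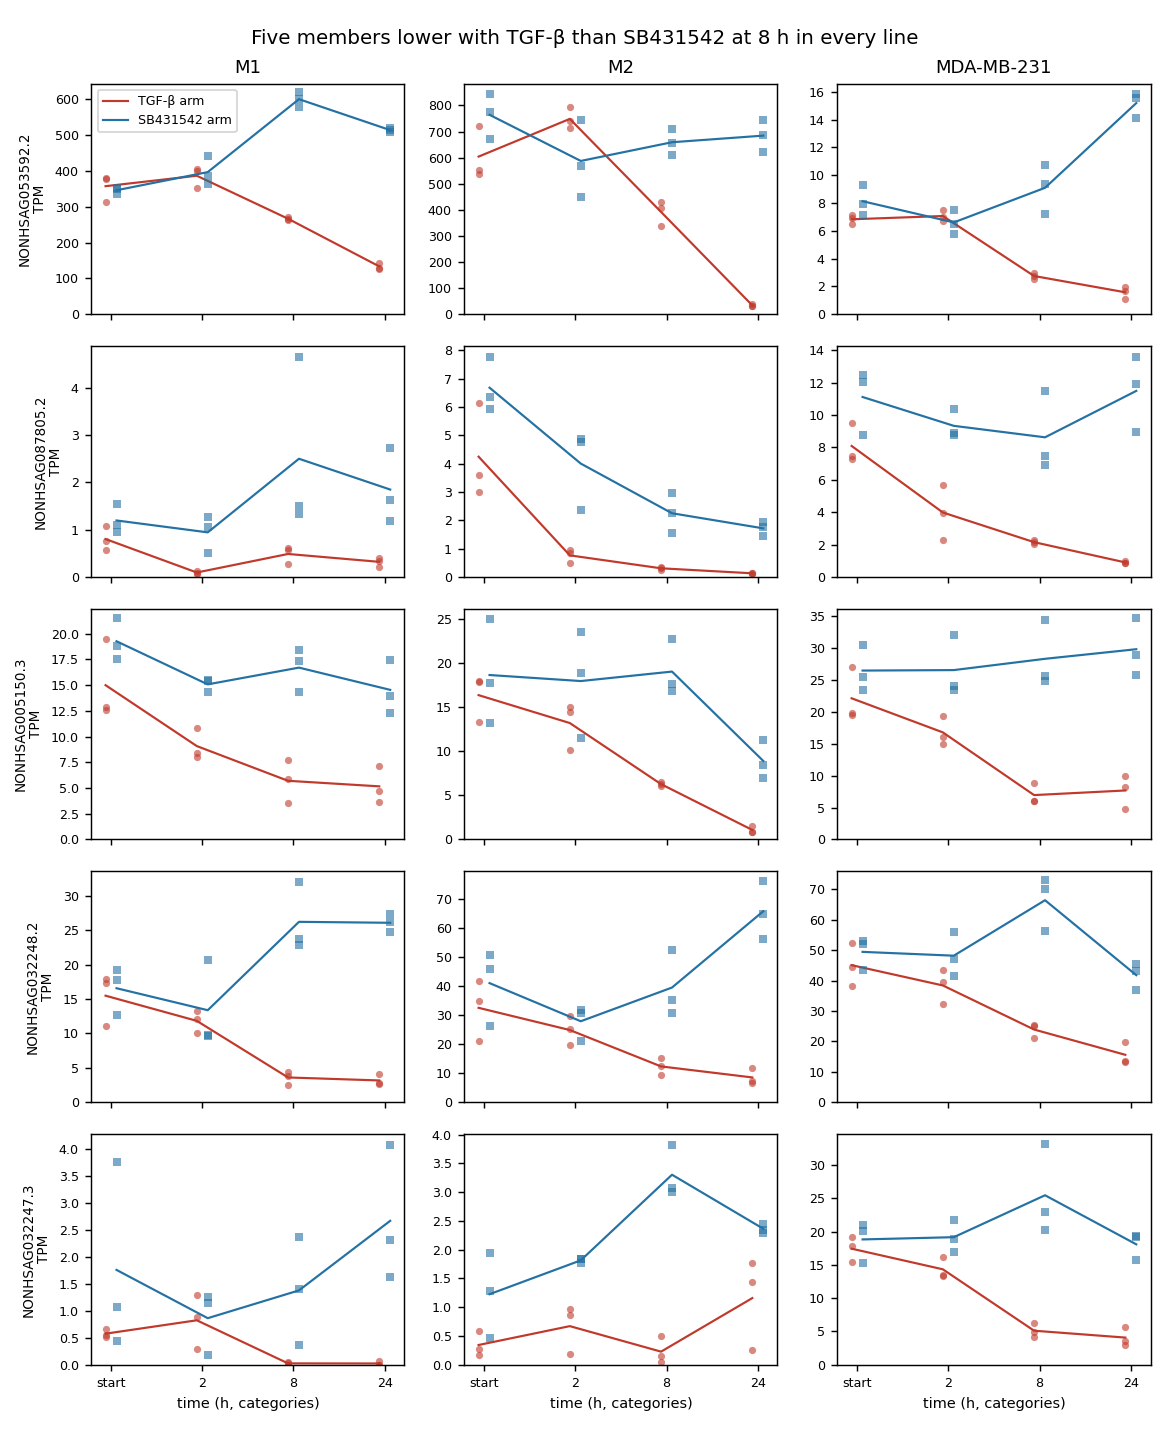
TPM of the 5 members called lower at 8 h in every line (rows) in M1, M2 and MDA-MB-231 (columns) at the start and at 2, 8 and 24 h; points are libraries, lines join the means of 3, red is TGF-β and blue SB431542, and the time axis is categorical. The arms of NONHSAG053592.2 overlap at 2 h and lie apart at 8 h, and its 2 h mean in M2 is higher with TGF-β (749 TPM) than with SB431542 (588 TPM). Those of NONHSAG087805.2 are apart at 2 h, and its mean at the start is also lower in the TGF-β arm of each line.

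At 2 h few members differed between the arms. Limma called 5 members lower in M1, 2 for M2 and 2 for MDA-MB-231, and 0 higher; of all tested genes, 0.321%, 0.106% and 0.652% were called lower, and 1.03%, 4.03% and 0.489% higher. At an unadjusted p under 0.05, the higher members numbered 1 (M1), 10 (M2) and 1 (MDA-MB-231). The lower members numbered 22, 3 and 20 in the same order. That limit was reached in either direction by 11.3%, 19.4% and 14.6% of all tested genes. The median difference of the members was −0.23 (M1), 0.18 (M2) and −0.44 (MDA-MB-231), beside −0.01, 0.27 and −0.15 for all tested genes. Relative to those medians, 24 members were lower in all 3 lines, against 12.5% of all 13631 genes. Without SB431542 replicate 1 of M2, 17 members were called higher and 2 lower in M2, and 2914 of all tested genes were called higher against 684 with it. Without TGF-β replicate 2 or 3, or SB431542 replicate 1 or 3, of MDA-MB-231 the 2 calls there became 0.

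The clearest early member in M1 was NONHSAG009470.2. It stood at 5.02, 8.81 and 9.39 TPM after 2 h of TGF-β and at 28.9, 23.6 and 31.9 TPM after 2 h of SB431542 (−1.83, SE 0.25, limma adjusted p 0.000126). NONHSAG085990.1 followed, at 5.92, 5.42 and 8.62 TPM against 15.7, 15.3 and 19.8 TPM (−1.30, SE 0.19, limma adjusted p 0.000248). In M2, NONHSAG009470.2 stood at 5.05, 5.21 and 5.20 TPM against 19.1, 8.47 and 10.5 TPM (−1.14, SE 0.25, limma adjusted p 0.0121). This M2 call was lost in 2 of the other settings tried. In MDA-MB-231, NONHSAG016968.2 stood at 0.902, 0.475 and 0.889 TPM against 3.02, 1.75 and 2.30 TPM (−1.18, SE 0.27, limma adjusted p 0.0263). In each of these comparisons the libraries of the arms did not overlap. The MDA-MB-231 call of NONHSAG016968.2 was lost in 5 of the other settings tried. Among them were the fits without TGF-β replicate 2 or 3 (adjusted p 0.174 and 0.0551) or SB431542 replicate 1 or 3 (0.147 and 0.101).

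Against 0 h, 24 members were lower after 8 h of TGF-β in M1, 21 for M2 and 10 for MDA-MB-231, and 0 were called higher, by limma. The shares of all tested genes called lower were 3.82%, 2.21% and 0.689%, and those called higher 5.28%, 2.65% and 0.586%. At an unadjusted p under 0.05, 2 members were higher in M1 and 0 in the other lines. The lower members numbered 38 (M1), 35 (M2) and 35 (MDA-MB-231). That limit was reached in either direction by 23.0%, 19.2% and 15.0% of all tested genes. This comparison shares its TGF-β libraries with the one between the arms at 8 h and has no time-matched control. Median changes of the members were −0.43, −0.55 and −0.67, beside 0.06, −0.08 and −0.17 for all tested genes. NONHSAG053592.2, NONHSAG005150.3 and NONHSAG032248.2 were called in all 3 lines, out of 6 such genes among 13631; they were named after their values were seen. The M2 count was 9 without 0 h replicate 1 or 3 or TGF-β replicate 1, and 13 without TGF-β replicate 2. The MDA-MB-231 count was 4 without 0 h replicate 1 or 2, and 5 without TGF-β replicate 1 or 2. When the scaling total excluded the 10 most abundant genes, the M2 count was 3.

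In M1 the deepest fall against 0 h was that of NONHSAG021746.2, from 12.5, 8.88 and 14.1 TPM to libraries all listed at 0 at 8 h (limma adjusted p 1.64e-05). NONHSAG003853.2 fell from 133, 136 and 121 TPM to 31.3, 27.0 and 36.8 TPM (−2.03, SE 0.25, limma adjusted p 1.31e-05). Both also fell under SB431542 in M1 by 8 h. NONHSAG021746.2 went there from 6.82, 12.0 and 12.0 TPM to 0, 6.30 and 0.565 TPM (limma adjusted p 0.00728). That call was lost in 2 of the other settings tried, among them without 8 h replicate 1 (0.0631). NONHSAG003853.2 went from 101, 82.8 and 122 TPM to 36.6, 46.5 and 36.0 TPM (−1.34, SE 0.25, limma adjusted p 0.00264). A fall over time in both arms of M1 thus marked these 2 members. In M2, NONHSAG003853.2 also fell under SB431542, from 52.6, 67.7 and 82.6 TPM to 33.5, 27.2 and 38 TPM (limma adjusted p 0.0388). That call was lost in 8 of the other settings tried. Among them were the fits without earliest replicate 2 or 3 (0.0707 and 0.209) or 8 h replicate 1 or 2 (0.118 and 0.170).

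Among the members called in M2, the leading falls against 0 h were those of NONHSAG087805.2, from 3.01, 3.60 and 6.12 TPM to 0.261, 0.30 and 0.349 TPM (−2.51, SE 0.29, limma adjusted p 4.87e-06), and of NONHSAG072189.1, from 12.5, 9.01 and 15.5 TPM to 2.09, 2.91 and 2.31 TPM (−2.11, SE 0.23, limma adjusted p 2.40e-06). In MDA-MB-231, NONHSAG087805.2 fell from 7.48, 9.49 and 7.31 TPM to 2.15, 2.29 and 2.01 TPM (−1.69, SE 0.25, limma adjusted p 0.000445). The 8 h libraries lay below all 0 h libraries in each case.

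**Figure D5:**
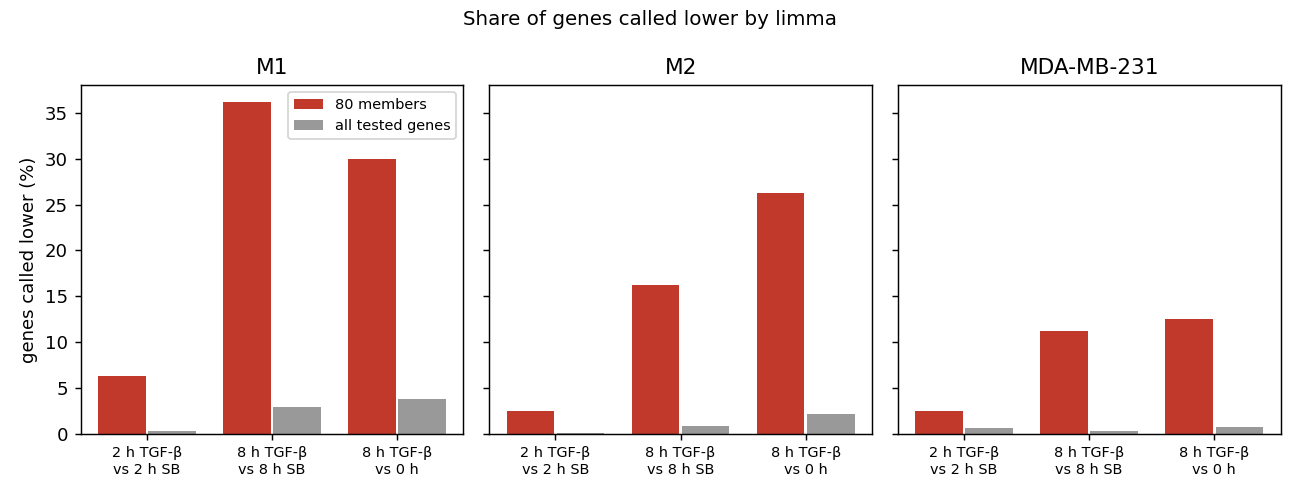
Percent of genes called lower by limma among the 80 members (red) and among all tested genes (grey) in 3 comparisons of each line, none of which uses the 24 h libraries in its contrast. The members' bars at 8 h against SB431542 stand for 29, 13 and 9 genes, and the grey bars are 2.89%, 0.885% and 0.266%.

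Under SB431542 the calls among members of M1 were mostly higher by 8 h. Against the earliest SB431542 samples, 13 members rose and 2 fell in M1, with 1.87% and 1.81% of all tested genes called higher and lower. The 2 falls are near the background share. NONHSAG048240.2 rose from 0.665, 1.53 and 1.18 TPM to 3.97, 3.60 and 5.31 TPM (1.58, SE 0.31, limma adjusted p 0.00448). NONHSAG102274.1 rose from 1.81, 1.63 and 1.52 TPM to 5.46, 4.58 and 3.96 TPM (1.25, SE 0.31, limma adjusted p 0.0246), without overlap, and lost the call in 5 of the 6 fits with a library left out (adjusted p 0.0585 to 0.111). The M1 total of 15 became 8 or 9 without earliest replicate 1 or 2, and 7 without 8 h replicate 1 or 2. In M2, 2 members fell and 0 rose, beside 1.88% and 0.13% of all tested genes. The 2 falls in M2 are near the background share too. In MDA-MB-231 limma called 0 in either direction, beside 0.224% of all tested genes lower and 0.0181% higher. At an unadjusted p under 0.05, 10 members were lower there and 2 higher. Of all tested genes, 15.4% reached that limit, so the members were near the background. The M2 count was 0 without earliest replicate 3 or 8 h replicate 1 or 2 and 1 without earliest replicate 2, and it was 7 (5 higher, 2 lower) after median-of-ratios scaling.

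The arms were also compared at their start. Between 0 h and the earliest SB431542 samples limma called 0 members in any line, with shares of all tested genes called in either direction of 0% in M1, 0.0118% for M2 and 0% for MDA-MB-231. At an unadjusted p under 0.05 there were 3 members in M1, 5 for M2 and 5 for MDA-MB-231, beside 5.68%, 9.54% and 5.07% of all tested genes. Median-of-ratios scaling also gave 0 calls in each line.

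The 8 h response differed between lines for few members. For M2 against M1 limma called 1 member and for MDA-MB-231 against M1 3 members, all with a less negative difference than in M1; 0.256% and 1.01% of all tested genes were called in this direction, and 0.261% and 2.23% in the other. NONHSAG099742.2 was called in both. It stood at 27.4, 16 and 31.7 TPM with TGF-β and 68.7, 88.0 and 58.1 TPM with SB431542 in M1. In M2 it stood at 11.3, 22.2 and 27.3 TPM against 12.8, 17.1 and 20.0 TPM, and in MDA-MB-231 at 7.10, 7.86 and 9.05 TPM against 7.26, 7.85 and 11.2 TPM. The arms were apart in M1 and overlapped in the other lines. For the remaining members a difference between lines could have been missed, since the 95% interval of such a difference had a median half-width of 0.89 in M2 and 0.91 log2 units in MDA-MB-231. The interval of 66 of the 80 members included 0 in each comparison. At an unadjusted limma p under 0.05, the response lay below that of M1 for 1 member and above it for 13 in M2. In MDA-MB-231 these counts were 2 and 12. Of all tested genes, 9.86% and 14.6% reached that limit in either direction.

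Levels of the members before stimulation differed widely between lines. The mean at 0 h ran from 0.508 to 357 TPM in M1 (median 7.65), from 0.342 to 604 TPM in M2 (median 6.0) and from 0.579 to 251 TPM in MDA-MB-231 (median 4.97). The highest of the 3 means was in M1 for 31 members, in M2 for 30 and in MDA-MB-231 for 19. Limma called 13 members lower and 14 higher in M2 than in M1, where 17.1% and 2.12% of 21857 tested genes were lower and higher. In MDA-MB-231, 37 were lower and 15 higher than in M1, with 38.5% and 9.63% of 22921 tested genes. The 13 lower members of 80 in M2 are near the background share.

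NONHSAG062585.1 was at 24.8, 35.3 and 23.5 TPM in non-stimulated M1, at 1.93, 0.550 and 2.59 TPM in M2 (−3.81, SE 0.33, limma adjusted p 3.05e-11) and at 39.4, 56.3 and 42.1 TPM in MDA-MB-231. NONHSAG058185.1 was at 18.4, 23.1 and 26.4 TPM in M1 and 3.41, 3.34 and 4.24 TPM in M2 (−2.47, SE 0.28, limma adjusted p 1.79e-08). NONHSAG096238.1 was higher in M2, at 2.84, 3.99 and 4.99 TPM against 0.260, 1.72 and 0.725 TPM in M1 (1.77, SE 0.37, limma adjusted p 0.000567). In MDA-MB-231, NONHSAG053592.2 was lower than in M1 (−5.60, SE 0.13, limma adjusted p 2.18e-30). NONHSAG009470.2 was lower too, at 0, 1.41 and 0.528 TPM against 24, 25.3 and 25.7 TPM in M1 (−4.68, SE 0.36, limma adjusted p 1.05e-13), and NONHSAG032247.3 was higher (4.06, SE 0.38, limma adjusted p 2.30e-11). NONHSAG087805.2 was higher in both M2 and MDA-MB-231 than in M1, by 1.83 and 2.73 (limma adjusted p 4.08e-05 and 4.89e-10). In each named comparison the groups did not overlap.

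The profile most like that of NONHSAG053592.2 was sought among 13630 other genes over the 54 libraries outside the rule, with log2 levels centred within each line. The nearest were NONHSAG064740.1 (rank 30, r = 0.78), NONHSAG019561.2, which is not a member (r = 0.77), and NONHSAG044968.2 (rank 50, r = 0.76). Within single lines the first had r = 0.43 (M1), 0.87 (M2) and 0.87 (MDA-MB-231). The median r was 0.45 over the other 79 members and 0.14 over all 13630 genes, and these points share libraries and their scaling.

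The change was smaller at 8 h than at 24 h for most members. Relative to all tested genes, the median difference between the arms at 8 h was −0.73 (M1), −0.64 (M2) and −0.36 (MDA-MB-231). It was larger in size at 24 h for 62, 67 and 66 of the 80 members, a direction that the choice on the 24 h values favours.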

How the data were processed

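Total RNA was taken with TRIzol and sequenced on the Illumina platform by a company, per the labels' protocols. Per the submitters' processing notes, the tools were StringTie 1.3.6, HISAT2 2.2.0, cutadapt 2.10 and FastQC, with GRCh38 as the build; how genes were annotated, stranded or filtered was not given in the sources used here. Values deposited by the authors are TPM, scaled over the lncRNA genes alone, so depth is unknown and no count test or interval applies. All 72 columns were matched to samples by label.

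The members and lists were chosen with earlier results of these data known. Log2(TPM + 0.5) of genes with at least 0.5 TPM in 3 or more libraries of a fit was tested with limma 3.58.1 (R 4.3.3, version 1.17.8 of data.table; lmFit, contrasts.fit, eBayes with trend), two-sided, over the 24 libraries of a line, or the 48 of a pair of lines, in 19 comparisons. The fit was tested on simulated data. Named for each comparison were the 2 called members of largest difference in each direction whose groups did not overlap (for differences in response, called members), ranks 1, 2, 79 and 80, the 2 most abundant members and the 3 nearest profiles; others are marked. Alternatives were other pseudocounts (1, 0.1), filters and scalings, a replicate block, fewer libraries and leaving out each library. Same-numbered libraries deviated together with r over 0.1 in every pair only in 1 of 15 comparisons, 2 h in MDA-MB-231 (0.130, 0.107 and 0.102). A pairing there is read from the data alone. The main fits did not pair libraries in any comparison, and the replicate block was an alternative only. Elsewhere r ran from −0.0956 to 0.136.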

Additional observations from a re-analysis of the deposited data

Results flagged for a closer look

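The 8 h response differed between lines, by the interaction test in limma, for 3 members. NONHSAG099742.2 was less reduced in M2 than in M1 by 1.74 on the log2 scale (SE 0.39, adjusted p 0.0214) and less reduced in MDA-MB-231 than in M1 by 1.43 (SE 0.36, adjusted p 0.0182). The M2 difference was not called in 6 of the other settings tried. Among them were the fits without M1 TGF-β replicate 2, M1 SB431542 replicate 2, M2 TGF-β replicate 2 or 3, or M2 SB431542 replicate 1 (adjusted p 0.0774 to 0.115). The MDA-MB-231 difference of this gene was not called in 5 of the other settings tried. Among them were the fits without M1 TGF-β replicate 2, M1 SB431542 replicate 2, MDA-MB-231 TGF-β replicate 3 or MDA-MB-231 SB431542 replicate 1 (adjusted p 0.0523 to 0.0878). NONHSAG032248.2 was less reduced in MDA-MB-231 than in M1 by 1.27 (SE 0.32, adjusted p 0.0182), and not called without M1 TGF-β replicate 1, M1 SB431542 replicate 2 or MDA-MB-231 SB431542 replicate 2 (adjusted p 0.0607 to 0.0750). NONHSAG099227.1 was less reduced in MDA-MB-231 than in M1 by 1.14 (SE 0.24, adjusted p 0.00366). Groups of 3 are too small for a search for single outlying libraries.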

How the results depend on the processing

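The 80 members kept differences under −0.3 in all 3 lines at 24 h with either pseudocount, with median-of-ratios scaling and without centring, and 78 to 80 did with a library left out. They were chosen with weakest differences of −0.615 or lower, so this outcome was largely fixed in advance. Under the same rule, 60 members stayed among the first 80 with median-of-ratios scaling, and 60 without centring. With a library left out, 60 to 76 stayed. For 8 h between the arms, the median difference of the members less that of all tested genes moved by less than the spread between replicates in each line under both other pseudocounts, median-of-ratios scaling and each library left out; the other medians were not recomputed. None of the recomputed differences of single named members, and none of these 8 h medians, changed sign. Counts of calls were not checked for direction in this way. At 2 h in M2, the calls among members became mostly higher without SB431542 replicate 1, as given above. With median-of-ratios scaling, members called numbered 36 at 8 h between the arms in M2 and 15 in MDA-MB-231, 7 and 4 at 2 h, 16 at 8 h against 0 h in MDA-MB-231, 7 in M2 and 1 in MDA-MB-231 over the SB431542 course, 3 (M2) and 9 (MDA-MB-231) for differences in response, and 10 in all 3 lines. When the fit held the compared groups alone, they were 2, 1 and 0 at 2 h in M1, M2 and MDA-MB-231, 10 in M2 and 3 in MDA-MB-231 at 8 h against 0 h, 4 over the SB431542 course in M2, 0 for the M2 difference in response, and 3 in all 3 lines. When the scaling total excluded the 10 most abundant genes, they were 1 at 2 h, 3 at 8 h against 0 h and 0 over the SB431542 course in M2. Without the 24 h libraries, the last of these comparisons gave 0 in M2 and 8 h against 0 h gave 13. No filter gave 1 over the SB431542 course in M2, and pseudocount 1 gave 5 for the MDA-MB-231 difference in response. Apart from the counts for all 3 lines, these counts merge both directions. Beyond the shares given above, they stand without the share of all tested genes. A shift of the members is thus not separated here from a shift of the background. The causes were not tested.

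With a replicate block, the SB431542 course in M2 had 1 member called in place of 2, and no other count of members moved by more than 1.5 times. Except at 2 h in MDA-MB-231, same-numbered libraries share only a number, and crossing of numbers was not tried.

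With a library left out, members called ranged from 7 to 12 over the SB431542 course in M1 and 0 to 2 in M2 and 0 to 1 in MDA-MB-231. At 8 h against 0 h the range was 9 to 19 in M2 and 4 to 13 in MDA-MB-231. At 2 h it was 2 to 19 in M2 and 0 to 3 in MDA-MB-231. The count of 19 came without SB431542 replicate 1 of M2 and was mostly of higher calls, when calls among all tested genes also rose, as given above. For differences in response it was 0 to 2 in M2 and 1 to 5 in MDA-MB-231, and for all 3 lines at 8 h it was 3 to 5. TPM keeps no depth, so precision at low levels is unknown.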

Other observations

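NONHSAG014156.2, the rank 77 member, had uneven replicates, and in some groups the same replicate number was low in all 3 lines. At 24 h of SB431542, replicate 3 read 1.80 TPM in M1, 2.00 TPM in M2 and 2.37 TPM in MDA-MB-231, while the other replicates read 54.3 to 136 TPM. At 8 h of TGF-β, replicate 1 was the lowest library in each line (20.5, 0.351 and 1.73 TPM), and the others read 35.3 to 126 TPM. At 24 h of TGF-β the replicate numbers did not share an order: replicate 3 was the highest in M1 (15.6 TPM) and the lowest in MDA-MB-231 (0.855 TPM). At 8 h of SB431542, replicate 3 was the highest in M2 (21.3 TPM) and MDA-MB-231 (125 TPM), and replicate 2 in M1 (19.4 TPM). The member order also depended on the pseudocount: with the same rule at a pseudocount of 1, 58 of the 80 members stayed among the first 80, and at 0.1 this was 41, while all 80 kept differences under −0.3 in each line.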
